A study of Mus musculus with 73 samples.

Results

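The 34 genes examined here encode the proteins that take glucose into the cell, split it to pyruvate, handle pyruvate and lactate, and run the pentose phosphate branch. They were chosen by symbol, by step of the pathway and by isozyme, among 25220 gene symbols of an RNA-seq expression table, and all 34 were found in it. Earlier results of these data were known when they were chosen, so their shares and medians beside those of all genes are descriptions and not tests. The study concerns the histone variant H3.3 in the early mouse embryo, and of its 73 samples only the 8 RNA-seq libraries were used. These comprised 3 libraries of p150DN 8-cell embryos, 2 of EGFP blastocysts and 3 of EGFP 8-cell embryos. All embryos were of a hybrid C57BL/6 / C3H background and had been cultured in KSOM, an embryo medium that holds glucose, pyruvate and lactate. Embryos labelled p150DN carried a dominant-negative version of p150. That protein is the largest part of CAF-1, a chromatin assembly factor that loads histones onto newly copied DNA. EGFP, a green fluorescent protein, marks the control embryos. How either was introduced and how many embryos made up a library were not stated in the labels, nor was whether replicates were separate litters or cultures, so the spread behind each p-value may be no more than technical.

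In glycolysis, hexokinases trap glucose inside the cell, phosphofructokinase commits it to breakdown, and the enzymes from triosephosphate isomerase to pyruvate kinase yield ATP and pyruvate. Pyruvate is then reduced to lactate or carried into mitochondria, where the pyruvate dehydrogenase complex turns it into acetyl-CoA, while the pentose phosphate branch makes NADPH and ribose for nucleotides. Mouse embryos are known to depend on pyruvate and lactate during early cleavage and to take up much more glucose from around compaction to the blastocyst stage.

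An estimated 16578221 to 22488477 fragments were counted per library, as inferred from the FPKM values. Levels are given in FPKM, fragments per kilobase of gene scaled to the library's total. FPKM can be compared between genes, with less certainty for genes that have near-identical copies in the genome. The p150DN libraries held 18412, 20465 and 21282 genes above 0 FPKM, the blastocyst libraries 18991 and 18547, and the EGFP 8-cell libraries 17310, 17477 and 18402. Chaf1a, which encodes p150, stood at 166, 254 and 238 FPKM in p150DN embryos, at 26.5 and 27.2 FPKM in blastocysts and at 27.7, 30.2 and 28.8 FPKM in EGFP 8-cell embryos, so it was higher in every p150DN library than in every EGFP library. The level of Chaf1a does not separate the embryo's own transcripts from introduced ones. Of 7 trophectoderm markers, which define the outer layer of the blastocyst, the summed level was 330 to 529 FPKM in p150DN embryos, 1110 to 1170 FPKM in blastocysts and 101 to 119 FPKM in EGFP 8-cell embryos, where the trophectoderm factor gene Elf5 was at 0 in every library. Of 10 cumulus and granulosa cell markers none reached 1 FPKM in any library. The trophectoderm sum thus had the same order of groups as glycolytic genes such as Gapdh and Pkm below, and its part in their differences was not tested. Unlike the other markers of that list, Tfap2c was lower in p150DN (64.9 to 76.3 FPKM) than in EGFP 8-cell embryos (80.7 to 94.0 FPKM), where it made up most of the sum. For 6 markers of the inner cell mass, the blastocyst's inner cells, sums were 551 to 780 FPKM in p150DN embryos, 872 to 928 FPKM in blastocysts and 473 to 635 FPKM in EGFP 8-cell embryos. Of these, Klf2, Esrrb and Tdgf1 were lowest in blastocysts. In such bulk libraries, fewer cells of a type and less RNA per cell cannot be told apart.

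Both glucose transporter genes and all 6 genes from triosephosphate isomerase to pyruvate kinase were higher in p150DN than in EGFP 8-cell embryos. The genes of upper glycolysis moved both ways, with 3 of 9 tested higher and 2 lower, while none of 3 lactate genes and 1 of 7 mitochondrial pyruvate genes passed the test. A gene was tested if it reached 1 FPKM in enough libraries, and was called where limma's Benjamini-Hochberg adjusted p over all tested genes was below 0.05. Of the 34 genes, 31 were tested in p150DN against EGFP 8-cell embryos and 16 were called, against 34.3% of all tested genes. Of these 16, 13 were higher, against 24.6% of all genes, and 3 were lower, against 9.68%. The groups did not overlap for 20 of the 31, against 49.8% of all genes. The median log2 fold change of the 31 was 0.51 and that of all 11730 tested genes was 0.19, each on the scale of log2(FPKM + 1), which understates the change of weak genes. Rescaling the libraries by median of ratios moved the median of all genes to -0.06 and that of the 31 to 0.23, and the calls became 11 higher and 6 lower, while the share of higher calls among all called genes fell to 43.9%, against 71.8% without rescaling. With quantile normalization the calls were 12 higher and 4 lower. The median of the 31 lay above that of all genes under each scaling. Median of ratios shifts all genes of a library alike, so by that scaling the gap was bound to stay about the same. The 3 genes that joined the lower calls by median of ratios did so relative to that shift.

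Between the blastocyst and the EGFP 8-cell stage most genes of the whole table differed, and the share of members called lay near that background. Of 31 tested, 23 were called (74.2%), against 67.5% of all tested genes, with 17 higher (42.6% of all genes) and 6 lower (24.9%). The groups did not overlap for 25 of the 31, against 79.6% of all genes. The median log2 fold change of the 31 was 0.67, and that of all genes was 0.28. This comparison and the first use the same EGFP 8-cell libraries, so their values are set side by side for each gene and were not tested against each other. A direct comparison of p150DN 8-cell embryos with EGFP blastocysts tested 30 of the 34 genes and called 16 (26.1% of all genes), 4 higher (11.9%) and 12 lower (14.2%). The groups did not overlap for 23 of the 30, against 61% of all genes. With 1 blastocyst library left out, the spread comes from the p150DN libraries alone and the lone blastocyst library is assumed to vary like them. None of the 16 was then called, without replicate 1 or without replicate 2 (limma adjusted p from 0.0566 to 0.28), and 116 and 79 genes of the whole table were. The directions held, and sizes moved little for most genes, such as Gpi1 (-1.04 without replicate 1 and -0.91 without replicate 2, beside -0.98) and Pfkfb3 (2.82 and 3.05, beside 2.93). The transporter genes moved most, with -0.72 and -1.49 for Slc2a1, beside -1.11, and -0.62 and -1.75 for Slc2a3, beside -1.18.

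**Figure D1:**
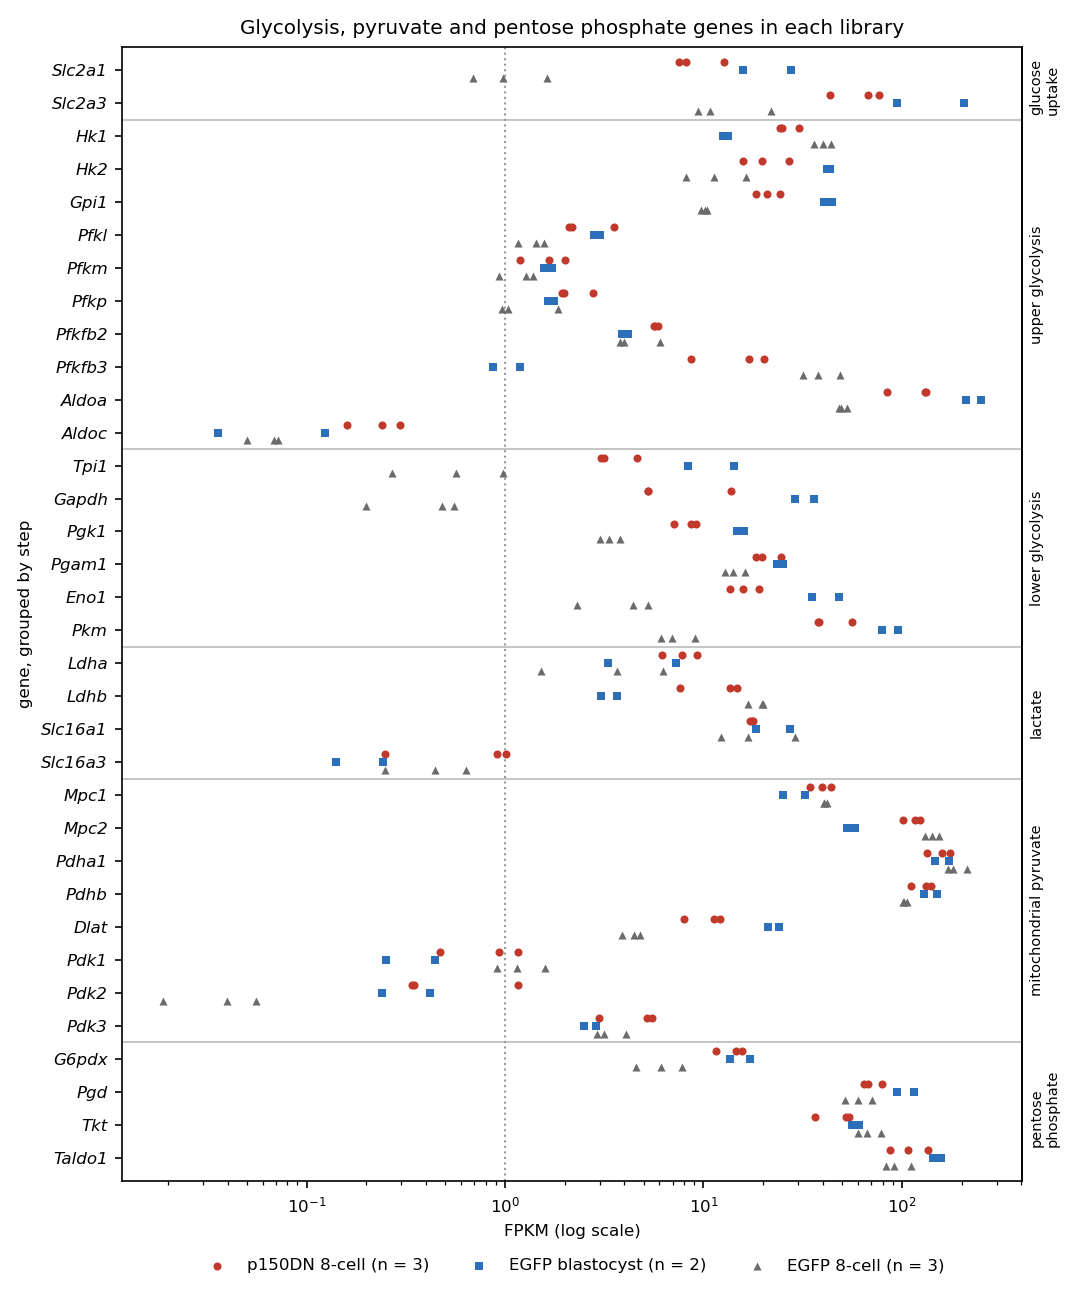
Level of each of the 34 genes in every library, in FPKM on a log axis, with red circles for p150DN 8-cell embryos, blue squares for EGFP blastocysts and grey triangles for EGFP 8-cell embryos. The dotted line marks 1 FPKM. For Gapdh the 3 groups lie apart, with p150DN libraries at 5.23 to 13.8 FPKM between blastocysts and EGFP 8-cell embryos, whereas for Pdha1 the groups intermingle between 134 and 212 FPKM.

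Glucose enters the cell through facilitative transporters, and both transporter genes were higher in p150DN embryos. Slc2a1, which encodes the widespread transporter GLUT1 (chromosome 4, 119108745 to 119137330, GRCm38.p6), was at 7.52, 8.19 and 12.7 FPKM in p150DN 8-cell embryos, at 27.8 and 15.9 FPKM in blastocysts and at 0.691, 0.980 and 1.63 FPKM in EGFP 8-cell embryos. The 3 groups did not overlap, and p150DN embryos lay between the other two. The log2 fold change was 2.31 ± 0.25 (SE) for p150DN and 3.42 ± 0.29 for blastocysts against EGFP 8-cell embryos, with limma adjusted p of 0.00052 and 9.13e-05. Slc2a3, which encodes GLUT3, a transporter of high affinity, was the stronger gene, with 67.1, 43.6 and 76.5 FPKM in p150DN embryos, 206 and 94.1 FPKM in blastocysts and 10.8, 22.0 and 9.34 FPKM in EGFP 8-cell embryos. Again no p150DN library reached a blastocyst library or came down to an EGFP 8-cell library. Slc2a3 was higher by 2.13 ± 0.31 in p150DN and by 3.31 ± 0.42 in blastocysts on the log2 scale (limma adjusted p = 0.00166 and 0.000473). It made up 84.2 to 89.9% of the summed level of the pair in p150DN embryos, 85.6 and 88.1% in blastocysts and 85.2 to 95.7% in EGFP 8-cell embryos, so the balance of the pair overlapped between groups. Below blastocysts, p150DN embryos differed by -1.11 ± 0.29 for Slc2a1 and -1.18 ± 0.35 for Slc2a3 (limma adjusted p = 0.0343 and 0.0469), calls that were also lost without p150DN replicate 1 (0.0627 and 0.0654) or replicate 2 (0.0845 and 0.112) and, for Slc2a3, without replicate 3 (0.0626).

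The hexokinase step showed an exchange of isozymes with little difference in their sum. Hk1, the constitutive hexokinase (chromosome 10, 62268855 to 62379920), was at 30.5, 24.8 and 24.2 FPKM in p150DN embryos, at 13.3 and 12.6 FPKM in blastocysts and at 40.0, 43.9 and 36.0 FPKM in EGFP 8-cell embryos. Every p150DN library lay below every EGFP 8-cell library and above both blastocyst libraries. Hk2, the inducible and insulin-responsive hexokinase (chromosome 6, 82725025 to 82774454), ran the other way, with 19.7, 15.9 and 26.9 FPKM in p150DN embryos, 41.9 and 43.3 FPKM in blastocysts and 8.21, 16.3 and 11.3 FPKM in EGFP 8-cell embryos. Here 1 p150DN library fell just under the highest EGFP 8-cell library. Hk2 therefore made up 39.2, 39.0 and 52.6% of hexokinase transcripts in p150DN embryos, 76.0 and 77.5% in blastocysts and 17.0, 27.1 and 23.9% in EGFP 8-cell embryos, shares that did not overlap between groups. The sum of Hk1 and Hk2 was 47.3 ± 5.79 FPKM in p150DN embryos (SD, n = 3), 55.5 ± 0.517 FPKM in blastocysts (n = 2) and 51.9 ± 7.21 FPKM in EGFP 8-cell embryos (n = 3), and the EGFP 8-cell range overlapped both others, while every p150DN library lay below both blastocyst libraries.

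Against EGFP 8-cell embryos, Hk1 differed by -0.58 ± 0.14 in p150DN embryos (log2, SE; limma adjusted p = 0.0151) and by -1.56 ± 0.13 in blastocysts (adjusted p = 8.85e-05, limma). The p150DN call was lost without EGFP 8-cell replicate 1 (limma adjusted p = 0.0567), EGFP 8-cell replicate 2 (0.0524) or p150DN replicate 3 (0.0579). For Hk2 the log2 fold changes were 0.77 ± 0.26 in p150DN embryos (limma adjusted p = 0.0494) and 1.80 ± 0.25 in blastocysts (0.000718). The p150DN value of Hk2 sat at the threshold: without EGFP 8-cell replicate 1 or 3 or p150DN replicate 1 or 3 its limma adjusted p was 0.167, 0.106, 0.0831 and 0.169, and it also missed the threshold under both rescalings (0.153 and 0.106). The direct comparison called both isozymes, Hk1 higher by 0.98 ± 0.16 and Hk2 differing by -1.03 ± 0.22 in p150DN embryos against blastocysts (limma adjusted p = 0.00949 and 0.0177).

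The middle of upper glycolysis held a steep fall of Pfkfb3 amid weakly expressed phosphofructokinase genes. Pfkfb3 encodes the bifunctional enzyme that makes the main activator of phosphofructokinase (chromosome 2, 11471430 to 11554071). It stood at 8.69, 20.3 and 16.9 FPKM in p150DN embryos, 0.870 and 1.20 FPKM in blastocysts and 37.9, 48.8 and 31.6 FPKM in EGFP 8-cell embryos. No library of one group reached those of another. Its log2 fold change was -1.37 ± 0.29 in p150DN embryos and -4.30 ± 0.21 in blastocysts against EGFP 8-cell embryos (limma adjusted p = 0.00736 and 1.87e-05), the largest fall among the tested members in both comparisons, and p150DN embryos exceeded blastocysts by 2.93 ± 0.34 (adjusted p = 0.00381, limma). Its relative Pfkfb2 did not pass against EGFP 8-cell embryos, except in blastocysts with quantile normalization (log2 fold change -0.58, limma adjusted p = 0.0471), and was at 5.74 ± 0.157, 4.02 ± 0.196 and 4.61 ± 1.25 FPKM in p150DN embryos, blastocysts and EGFP 8-cell embryos (SD, n = 3, 2 and 3). Pfkfb3 accordingly supplied 60.4, 78.3 and 74.1% of the pair in p150DN embryos, 18.3 and 22.3% in blastocysts and 90.9, 92.5 and 83.9% in EGFP 8-cell embryos.

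The phosphofructokinase genes Pfkl, Pfkm and Pfkp, of the liver, muscle and platelet forms, stayed between 0.934 and 3.55 FPKM in all libraries. Their sum was 6.46 ± 1.37 FPKM in p150DN embryos, 6.26 ± 0.0906 FPKM in blastocysts and 3.87 ± 0.590 FPKM in EGFP 8-cell embryos. With each pair of groups fitted alone on FPKM as deposited, only Pfkl in blastocysts was called (log2 fold change 0.71 ± 0.17, limma adjusted p = 0.00757). It was not called with quantile normalization (0.109). In p150DN embryos Pfkl had a log2 fold change of 0.57 ± 0.22 (adjusted p = 0.0698, limma), and was called with all 8 libraries in 1 fit (limma adjusted p = 0.0453). Gpi1 and Aldoa, the enzymes on either side of this step, were called in each comparison. Gpi1, phosphoglucose isomerase, was at 20.8, 18.4 and 24.3 FPKM in p150DN embryos, 40.3 and 44.4 FPKM in blastocysts and 10.4, 10.2 and 9.74 FPKM in EGFP 8-cell embryos, a fold change of 0.99 ± 0.15 and 1.97 ± 0.12 on the log2 scale (limma adjusted p = 0.00198 and 3.66e-05). Aldoa, the main aldolase, was the most abundant glycolytic gene of the list, with 133, 84.7 and 130 FPKM in p150DN embryos, 211 and 252 FPKM in blastocysts and 48.2, 52.7 and 49.5 FPKM in EGFP 8-cell embryos. Its groups lay apart as well, with log2 fold changes of 1.16 ± 0.18 and 2.18 ± 0.12 (limma adjusted p = 0.00191 and 2.28e-05). The brain aldolase gene Aldoc rested on 2 to 14 fragments per library, below the test's filter, so no direction is given for it.

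**Figure D2:**
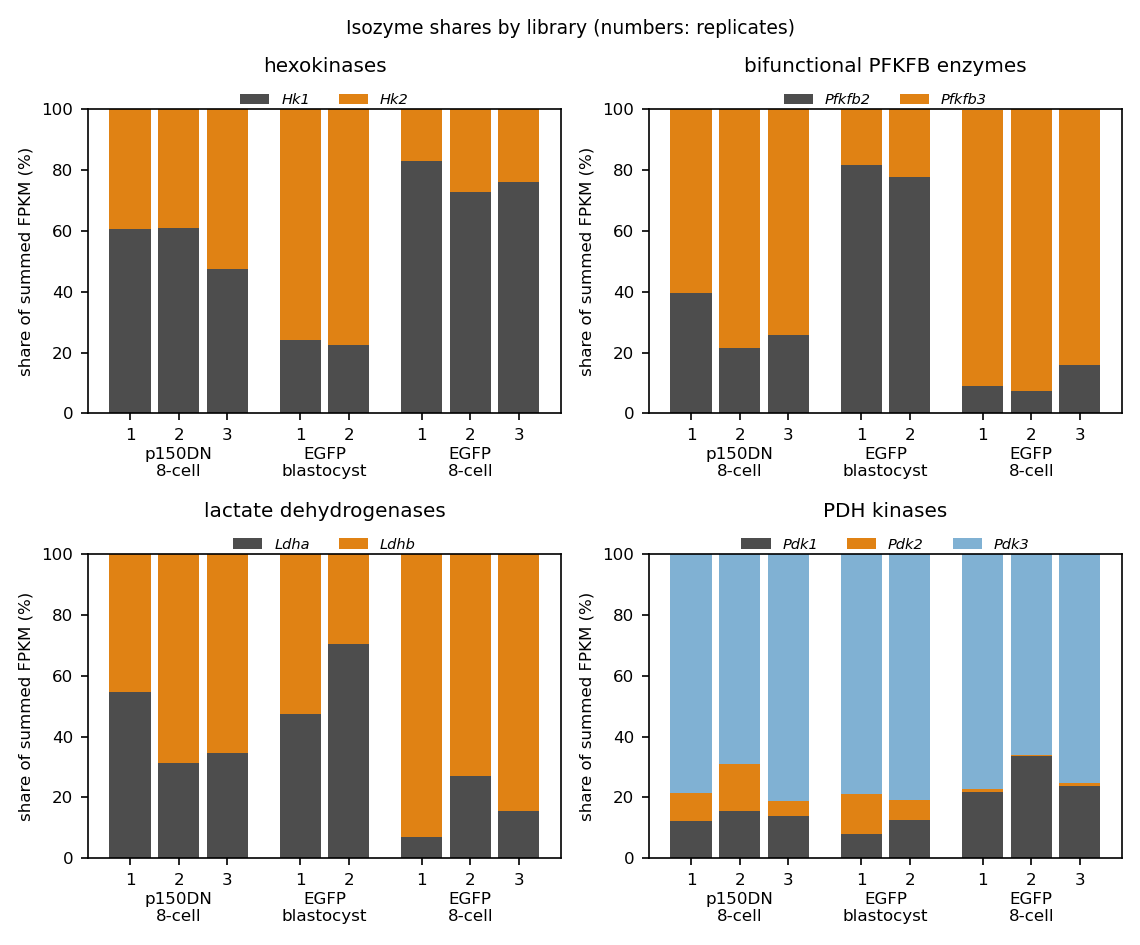
Share of each isozyme in the summed FPKM of its set, in percent, 1 bar per library with p150DN 8-cell embryos on the left, EGFP blastocysts in the middle and EGFP 8-cell embryos on the right. Hk2 takes 39.0 to 52.6% of hexokinase transcripts in p150DN embryos, between the 76.0 and 77.5% of blastocysts and the 17.0 to 27.1% of EGFP 8-cell embryos.

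Every gene of lower glycolysis was called against EGFP 8-cell embryos, as were both transporter genes. In p150DN embryos 6 of 6 were higher, against 24.6% of all genes, and in blastocysts 6 of 6, against 42.6%. The median log2 fold changes of the 6 were 1.68 and 3.03, beside 0.19 and 0.28 over all tested genes. The p150DN call of Pgam1 depended on single libraries, as given below. Gapdh, the dehydrogenase whose step makes NADH (chromosome 6, 125161852 to 125166467), was at 5.28, 5.23 and 13.8 FPKM in p150DN embryos, 36.3 and 29.0 FPKM in blastocysts and 0.482, 0.198 and 0.553 FPKM in EGFP 8-cell embryos. Few fragments were counted for it in EGFP 8-cell embryos, with 15, 6 and 16, against 161, 153 and 342 fragments in p150DN embryos. Its processed copies in the genome leave its absolute level uncertain, as set out below, so a low value need not mean absence. The log2 fold change was 2.57 ± 0.34 in p150DN embryos and 4.58 ± 0.20 in blastocysts (limma adjusted p = 0.00099 and 1.64e-05), the largest rise among the tested members in both comparisons. Tpi1, triosephosphate isomerase, also had low values, with 3.14, 3.06 and 4.64 FPKM in p150DN embryos, 8.40 and 14.3 FPKM in blastocysts and 0.981, 0.269 and 0.563 FPKM in EGFP 8-cell embryos. Its log2 fold changes were 1.53 ± 0.24 and 2.92 ± 0.28 (adjusted p = 0.00208 and 0.000143, limma). Neither gene had overlapping groups in any of the comparisons.

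Pkm, pyruvate kinase, which makes the last ATP of glycolysis (chromosome 9, 59656576 to 59679372), was at 37.9, 38.2 and 56.1 FPKM in p150DN embryos, 79.3 and 95.8 FPKM in blastocysts and 6.14, 6.92 and 9.05 FPKM in EGFP 8-cell embryos. Each p150DN library exceeded each EGFP 8-cell library several times over and stayed below each blastocyst library. The log2 fold change was 2.42 ± 0.20 in p150DN embryos and 3.41 ± 0.18 in blastocysts (limma adjusted p = 0.000205 and 2.28e-05). The table has 1 row for Pkm, so its splice forms PKM1 and PKM2 were not told apart. Eno1, alpha-enolase, was at 13.6, 15.8 and 19.1 FPKM in p150DN embryos, 35.4 and 48.5 FPKM in blastocysts and 2.30, 5.23 and 4.43 FPKM in EGFP 8-cell embryos. Its log2 fold changes of 1.82 ± 0.25 and 3.14 ± 0.29 were called (limma adjusted p = 0.00133 and 0.000127). Pgk1, phosphoglycerate kinase, averaged 8.29 ± 1.07 FPKM (SD) in p150DN embryos, 15.4 ± 0.948 FPKM in blastocysts and 3.38 ± 0.397 FPKM in EGFP 8-cell embryos (n = 3, 2 and 3; log2 fold changes 1.08 ± 0.18 and 1.91 ± 0.16).

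Pgam1, phosphoglycerate mutase, changed least among these 6, with 24.7, 19.8 and 18.4 FPKM in p150DN embryos, 23.5 and 25.3 FPKM in blastocysts and 16.3, 12.9 and 14.1 FPKM in EGFP 8-cell embryos. The p150DN and blastocyst libraries overlapped, and both lay above EGFP 8-cell embryos, by 0.51 ± 0.16 and 0.72 ± 0.14 on the log2 scale (limma adjusted p = 0.0408 and 0.00348). The p150DN call was lost when any 1 of the 6 libraries was left out (limma adjusted p from 0.0526 to 0.116) and under both rescalings (0.407 and 0.152). Mouse carries processed copies of several of these genes, Gapdh foremost, and the sources used here do not give how reads matching several places were counted, so their absolute levels are uncertain. The retrocopy gene Eno1b, nearly identical to Eno1, was at 2.23, 1.57 and 2.37 FPKM in p150DN embryos, 4.58 and 5.44 FPKM in blastocysts and 0.0820, 1.04 and 0.382 FPKM in EGFP 8-cell embryos. Except for Pgam1, the lower glycolytic genes were also lower in p150DN embryos than in blastocysts, by log2 fold changes of -2.01 ± 0.38 for Gapdh, -1.39 ± 0.27 for Tpi1, -1.32 ± 0.20 for Eno1, -0.99 ± 0.21 for Pkm and -0.82 ± 0.18 for Pgk1 (limma adjusted p from 0.00756 to 0.0175).

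The 250 bases upstream of a start site are printed for a pair of genes that were higher in blastocysts and in p150DN embryos and hold the letters ACGTG, the core of the element that hypoxia-inducible factors bind, and for a higher and a lower gene whose printed window lacks them. Capitals mark ACGTG or its reverse complement CACGT. The sequences are RefSeq's, from GRCm38.p6, written from 5′ to 3′ on the strand of the gene. For Pkm only the window of the first of its 2 annotated starts is shown, and that of the second start, which lies inside the gene, holds 1 match. Higher genes are not alone in holding the letters, nor do all of them hold them. Pfkfb3, the most strongly lowered member, has 1 match in the window of one start. The window of its other start has 1 CACGTG, which counts as 2 matches because each strand reads ACGTG. Among members called higher in p150DN embryos, Slc2a1, Aldoa and Pgam1 also hold ACGTG. No window of Gapdh, Tpi1, Eno1, Gpi1, Dlat or G6pdx, called higher as well, holds it. Slc16a1 and Pdk3, not called there, do.
Pgk1, chrX:106186850-106187099, strand +: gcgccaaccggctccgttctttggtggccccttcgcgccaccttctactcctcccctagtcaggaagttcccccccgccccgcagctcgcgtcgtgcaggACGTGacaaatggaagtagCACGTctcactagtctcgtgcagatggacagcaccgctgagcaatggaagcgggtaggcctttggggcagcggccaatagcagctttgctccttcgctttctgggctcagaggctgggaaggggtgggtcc
Hk2, chr6:82774455-82774704, strand -: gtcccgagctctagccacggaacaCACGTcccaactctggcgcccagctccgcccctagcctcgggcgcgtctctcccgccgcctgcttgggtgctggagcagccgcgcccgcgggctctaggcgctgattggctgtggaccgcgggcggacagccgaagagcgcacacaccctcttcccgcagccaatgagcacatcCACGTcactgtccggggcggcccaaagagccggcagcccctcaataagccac
Pkm, chr9:59656326-59656575, strand +: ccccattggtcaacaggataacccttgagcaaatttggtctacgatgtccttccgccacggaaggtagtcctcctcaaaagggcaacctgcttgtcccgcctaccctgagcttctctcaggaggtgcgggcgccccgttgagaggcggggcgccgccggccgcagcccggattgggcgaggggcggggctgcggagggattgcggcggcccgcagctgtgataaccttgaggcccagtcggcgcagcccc
Ldhb, chr6:142507958-142508207, strand -: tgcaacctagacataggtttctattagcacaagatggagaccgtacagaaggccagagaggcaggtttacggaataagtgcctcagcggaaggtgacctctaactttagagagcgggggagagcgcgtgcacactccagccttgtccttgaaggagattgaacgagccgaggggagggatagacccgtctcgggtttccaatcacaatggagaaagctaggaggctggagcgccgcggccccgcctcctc
The motif occurred in 19 of 51 upstream windows of the members (37.3%), against 5444 of 32851 windows of all genes with a promoter entry (16.6%). Both strands were searched, and these 32851 windows were not limited to genes of the expression table or to expressed genes. Of 33 members with a window, 15 held it in at least 1 window, but the share of all genes that did so was not computed. Overlapping windows of a gene, such as those of neighbouring Aldoa starts, were counted separately. Ldha, not called in any comparison with all libraries on FPKM as deposited, had the most matches, 5 in the window of one start. That window holds 2 CACGTG, each of which counts as 2 matches. The longer CACGTG, which contains ACGTG, was in 6 of the 51 windows (11.8%), against 6.0% of all windows. GGGCGG was found in 56.9% of member windows and in 32.7% of all windows, and CCAAT in 33.3% and 33.8%. The GC content of the windows shown was 62.8% for Pgk1, 69.6% for Hk2, 66.4% for Pkm and 56.4% for Ldhb, while the median over all windows was 52.4%. A match of letters is a description of the window and not a bound site.

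**Figure D3:**
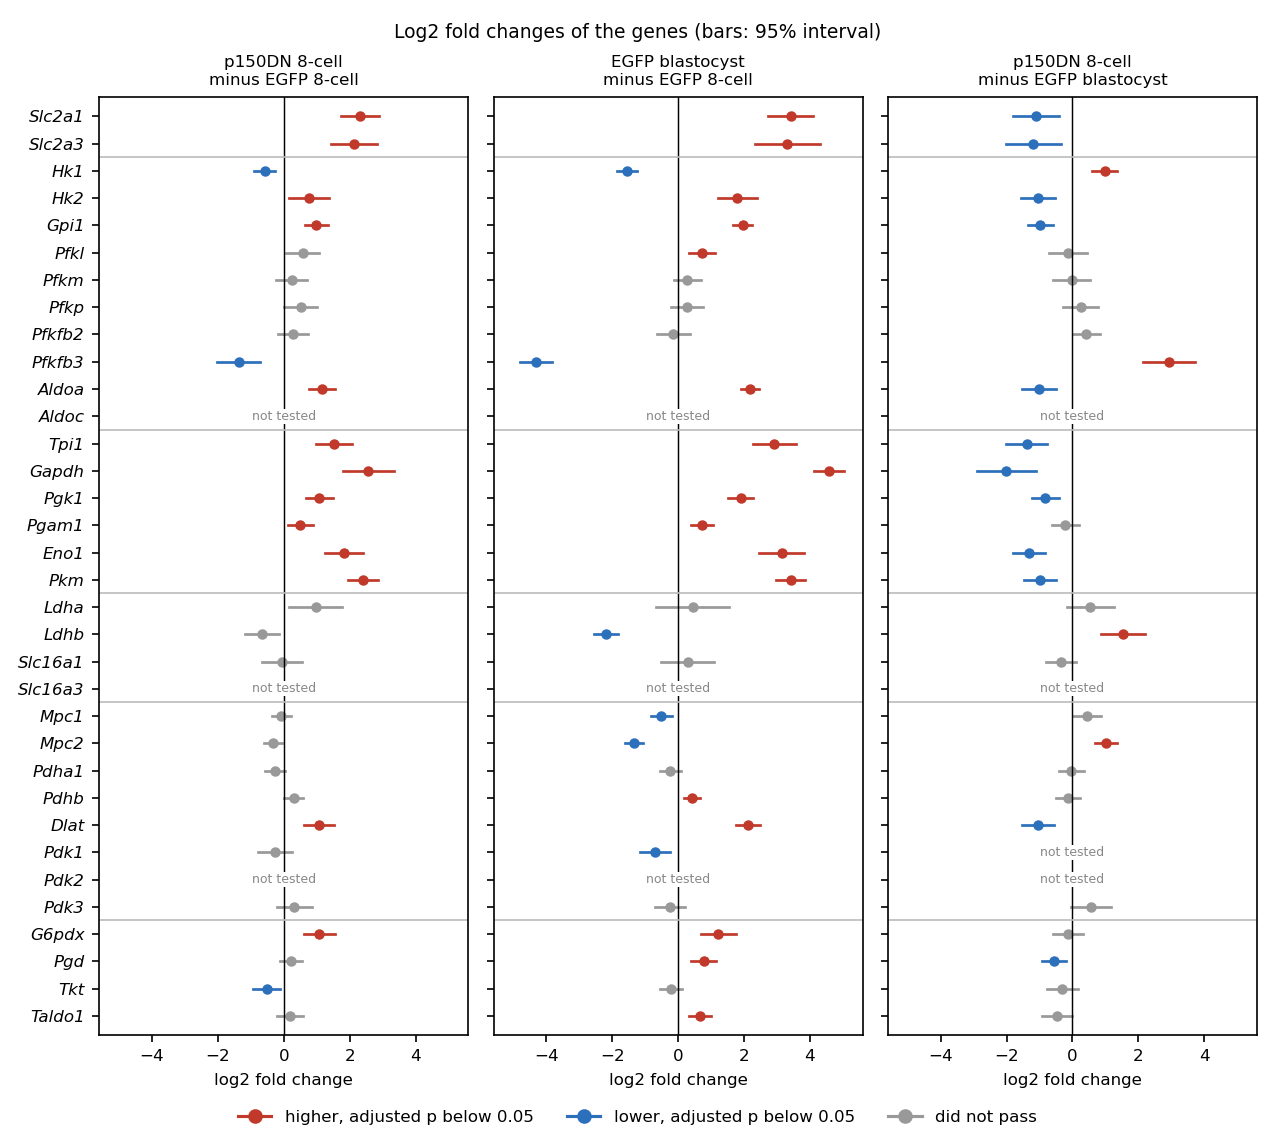
Log2 fold change of each gene in the 3 comparisons, on the log2(FPKM + 1) scale, with bars for the 95% interval of limma. Red points were called higher, blue points were called lower and grey points did not pass. From Tpi1 to Pkm every point lies right of 0 in the first and second panels, while Pfkfb3 lies left at -1.37 and -4.30.

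No lactate gene was called higher against EGFP 8-cell embryos with all libraries, though Ldha came near the threshold in p150DN embryos. Lactate dehydrogenase interconverts pyruvate and lactate, and its form Ldhb, the heart type (chromosome 6, 142490249 to 142507957), was at 7.64, 13.6 and 14.8 FPKM in p150DN embryos, 3.68 and 3.04 FPKM in blastocysts and 19.9, 16.9 and 19.8 FPKM in EGFP 8-cell embryos. The 3 groups were apart. Blastocysts were lower by a log2 fold change of -2.19 ± 0.16 (limma adjusted p = 5.25e-05). In p150DN embryos it was -0.65 ± 0.23, which missed the threshold (limma adjusted p = 0.0567), but passed under both rescalings (0.00796 and 0.0252) and without p150DN replicate 3 (0.0483). Against blastocysts, Ldhb was higher in p150DN embryos by 1.54 ± 0.28 (adjusted p = 0.0122, limma). Ldha, the muscle form typical of glycolytic cells, was at 9.23, 6.20 and 7.78 FPKM in p150DN embryos, 3.32 and 7.26 FPKM in blastocysts and 1.52, 6.28 and 3.67 FPKM in EGFP 8-cell embryos. The groups overlapped. Its log2 fold change was 0.97 ± 0.35 in p150DN embryos (95% interval 0.17 to 1.77, limma adjusted p = 0.0604), with a call without EGFP 8-cell replicate 2 (1.33, adjusted p = 0.0182), and 0.44 ± 0.46 in blastocysts (0.429).

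Ldha thus supplied 54.7, 31.2 and 34.5% of lactate dehydrogenase transcripts in p150DN embryos, 47.4 and 70.5% in blastocysts and 7.10, 27.1 and 15.6% in EGFP 8-cell embryos. Each p150DN share exceeded each EGFP 8-cell share while p150DN replicate 1 lay within the range of the blastocysts and replicates 2 and 3 lay below it. The summed level was 19.8 ± 2.86 FPKM in p150DN embryos, 8.65 ± 2.33 FPKM in blastocysts and 22.7 ± 1.14 FPKM in EGFP 8-cell embryos. Blastocysts, in which Pkm was highest, had the lowest summed lactate dehydrogenase level of the 3 groups. Slc16a1, the monocarboxylate transporter MCT1 that carries lactate and pyruvate across the cell membrane, was at 17.7, 17.2 and 17.5 FPKM in p150DN embryos, 27.4 and 18.3 FPKM in blastocysts and 16.9, 29.0 and 12.2 FPKM in EGFP 8-cell embryos. It was not called in any comparison, and its 95% interval in p150DN embryos ran from -0.66 to 0.54 on the log2 scale. Slc16a3, the lactate exporter MCT4 of glycolytic cells, lay under the filter, at 0.248 to 1.01 FPKM in p150DN embryos, 0.140 and 0.242 FPKM in blastocysts and 0.249 to 0.634 FPKM in EGFP 8-cell embryos.

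**Figure D4:**
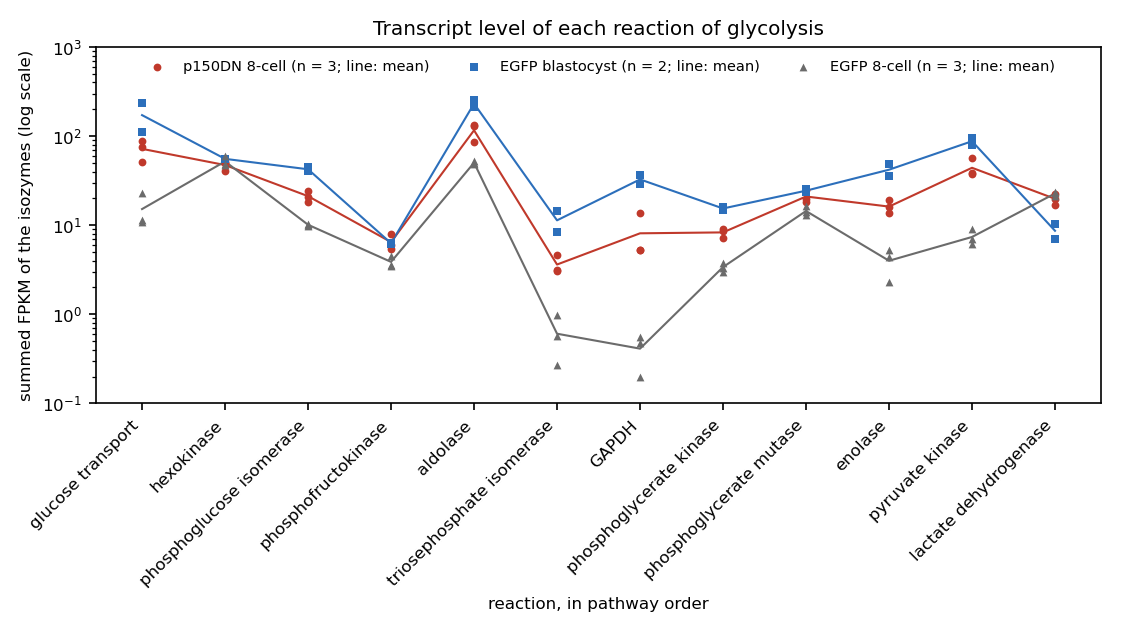
Summed FPKM of the isozymes of each reaction of glycolysis among the 34 genes, in pathway order, on a log axis. Each library has a point, and lines run through the group means. Isozymes outside the 34 genes, such as Slc2a8 and Pgam2, are left out of the sums, which could alter the order of groups. Pgam2 was at 7.53 to 13.1 FPKM in p150DN embryos and at 5.87 and 8.54 FPKM in blastocysts. The 3 groups come together at hexokinase (47.3, 55.5 and 51.9 FPKM in p150DN embryos, blastocysts and EGFP 8-cell embryos), spread widest at GAPDH and are in reverse order at lactate dehydrogenase, where blastocysts are lowest. The order of the means also differs at hexokinase and phosphofructokinase.

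Genes of mitochondrial pyruvate entry and oxidation were among the strongest of the list and moved in different directions. Mpc1 and Mpc2 form the carrier that brings pyruvate into mitochondria. Mpc2 (chromosome 1, 165461260 to 165481218) was at 101, 124 and 116 FPKM in p150DN embryos, 53.2 and 58.2 FPKM in blastocysts and 131, 143 and 154 FPKM in EGFP 8-cell embryos. No library of one group entered the range of another. Blastocysts were lower by -1.34 ± 0.11 on the log2 scale (limma adjusted p = 9.01e-05), and the p150DN difference of -0.32 ± 0.12 did not pass (adjusted p = 0.0727, limma) except by median of ratios (0.00847) or without p150DN replicate 2 (0.0479). Mpc1 averaged 39.3 ± 4.71 FPKM (SD) in p150DN embryos, 28.8 ± 5.16 FPKM in blastocysts and 41.0 ± 0.883 FPKM in EGFP 8-cell embryos (n = 3, 2 and 3). It was called lower in blastocysts (log2 fold change -0.51 ± 0.14, limma adjusted p = 0.013), though not without blastocyst replicate 1 (0.0741). Between p150DN embryos and blastocysts, Mpc2 was higher in p150DN embryos by 1.01 ± 0.14 (adjusted p = 0.00619, limma).

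In the pyruvate dehydrogenase complex, the subunits behaved unequally. Dlat, the acetyltransferase core (chromosome 9, 50634633 to 50659780), was at 12.1, 7.96 and 11.3 FPKM in p150DN embryos, 21.0 and 24.1 FPKM in blastocysts and 3.90, 4.80 and 4.47 FPKM in EGFP 8-cell embryos. Its groups lay apart, with log2 fold changes of 1.07 ± 0.20 and 2.13 ± 0.16 (limma adjusted p = 0.00418 and 5.74e-05). The pair of genes for the first enzyme of the complex was far more abundant and differed little. Pdha1 averaged 156 ± 20.8 FPKM in p150DN embryos, 159 ± 17.8 FPKM in blastocysts and 188 ± 21.7 FPKM in EGFP 8-cell embryos. It did not pass in either comparison on FPKM as deposited, and was called lower in both by median of ratios (-0.55 in p150DN embryos and -0.46 in blastocysts, limma adjusted p = 0.0171 and 0.017). Pdhb averaged 128 ± 15.5 FPKM in p150DN embryos, 140 ± 15.6 FPKM in blastocysts and 104 ± 2.63 FPKM in EGFP 8-cell embryos, and was called in blastocysts (0.42 ± 0.11, limma adjusted p = 0.0108), though not without blastocyst replicate 2 (0.0713) or by median of ratios (0.158). In p150DN embryos its log2 fold change of 0.30 ± 0.12 had an adjusted p of 0.0914 in limma, which was 0.0249 without p150DN replicate 2 and 0.0475 with quantile normalization, while by median of ratios it was 0.977.

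The pyruvate dehydrogenase kinases, which switch the complex off, were all weak. Pdk3 supplied 69.0 to 81.0% of the set in p150DN embryos, 78.8 and 80.9% in blastocysts and 66.1 to 77.3% in EGFP 8-cell embryos, and was not called in any comparison on FPKM as deposited with all libraries. It was called lower in blastocysts than in EGFP 8-cell embryos with quantile normalization (log2 fold change -0.66, limma adjusted p = 0.0223). Without p150DN replicate 1 it was called higher in p150DN embryos than in blastocysts (log2 fold change 0.78, limma adjusted p = 0.0271). Pdk1 was at 0.471, 1.17 and 0.938 FPKM in p150DN embryos, 0.252 and 0.442 FPKM in blastocysts and 1.15, 1.60 and 0.907 FPKM in EGFP 8-cell embryos. Its fall in blastocysts was called (-0.71 ± 0.19, limma adjusted p = 0.0134), but not without blastocyst replicate 1 (0.0832), and it was called lower in p150DN embryos with quantile normalization (-0.63, limma adjusted p = 0.0349). Pdk2 was under the filter and rested on 18, 59 and 15 fragments in p150DN embryos, 21 and 14 fragments in blastocysts and 3, 1 and 2 fragments in EGFP 8-cell embryos. The fragment ranges of p150DN and EGFP 8-cell embryos did not overlap, at levels too low for a test.

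Of the 4 pentose phosphate members, the gene of the entry enzyme had the largest log2 fold changes against EGFP 8-cell embryos. G6pdx, glucose-6-phosphate dehydrogenase, which makes NADPH (chromosome X, 74409483 to 74428880), was at 11.6, 15.6 and 14.7 FPKM in p150DN embryos, 13.7 and 17.2 FPKM in blastocysts and 4.56, 7.78 and 6.11 FPKM in EGFP 8-cell embryos. The p150DN and blastocyst libraries overlapped, and all of them lay above EGFP 8-cell embryos. The log2 fold change was 1.08 ± 0.21 in p150DN embryos and 1.22 ± 0.22 in blastocysts (limma adjusted p = 0.00538 and 0.00252), and p150DN embryos differed from blastocysts by -0.14 ± 0.19 with a 95% interval of -0.59 to 0.31 (adjusted p = 0.611, limma). With p150DN replicate 1 alone the p150DN value was 0.84 and did not pass (limma adjusted p = 0.1). The embryos' sex was not given, and G6pdx, Pgk1, Pdha1 and Pdk3 lie on the X chromosome.

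Downstream in this branch the values were high and the differences smaller. Pgd, phosphogluconate dehydrogenase, the next source of NADPH, averaged 70.7 ± 7.87 FPKM (SD) in p150DN embryos, 104 ± 14.4 FPKM in blastocysts and 60.8 ± 9.82 FPKM in EGFP 8-cell embryos (n = 3, 2 and 3). It was called higher in blastocysts (0.78 ± 0.16, limma adjusted p = 0.00439), though not without blastocyst replicate 2 (0.0595), while its 0.22 ± 0.15 in p150DN embryos did not pass (0.284). The p150DN embryos were lower than blastocysts by -0.56 ± 0.16 (0.0392), a call lost without p150DN replicate 1 (0.0642) or 2 (0.0737). Taldo1, transaldolase, was at 135, 87.1 and 108 FPKM in p150DN embryos, 144 and 158 FPKM in blastocysts and 91.5, 82.8 and 112 FPKM in EGFP 8-cell embryos. Its rise in blastocysts, 0.67 ± 0.14, was called (limma adjusted p = 0.00513) but not without blastocyst replicate 2 (0.061), and p150DN embryos overlapped the EGFP 8-cell range. Against blastocysts it was called lower in p150DN embryos without p150DN replicate 1 (-0.63, limma adjusted p = 0.0294) and not with all libraries (-0.47, adjusted p = 0.108). Tkt, transketolase, was the lone gene of the branch called lower in p150DN embryos, with 54.4, 36.5 and 52.3 FPKM in p150DN embryos, 56.0 and 60.9 FPKM in blastocysts and 59.8, 78.3 and 66.8 FPKM in EGFP 8-cell embryos. The p150DN libraries lay below both other groups. In blastocysts Tkt was called lower by median of ratios alone (-0.44, limma adjusted p = 0.0183). Its p150DN log2 fold change of -0.52 ± 0.18 sat at the threshold (limma adjusted p = 0.0497), and the call was lost without any 1 of EGFP 8-cell replicates 1, 2 and 3 and p150DN replicates 2 and 3 (adjusted p from 0.0687 to 0.151, limma).

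Of 50 further genes of glucose, pyruvate and pentose phosphate metabolism, 33 were tested in p150DN against EGFP 8-cell embryos, of which 13 were called higher (39.4%, against 24.6% of all genes) and 4 lower (12.1%, against 9.68%). In blastocysts 14 of 33 were called higher (42.4%, against 42.6%) and 11 lower (33.3%, against 24.9%). In p150DN embryos against blastocysts 5 of 35 were called higher (14.3%, against 11.9%) and 5 lower (14.3%, against 14.2%). Apart from the higher calls in p150DN embryos and the lower calls in blastocysts, these shares lay near those of all genes. Their median log2 fold changes in the 3 comparisons were 0.38, 0.30 and 0.11, beside 0.19, 0.28 and -0.05 over all tested genes. Hif1a, the oxygen-regulated subunit of the hypoxia-inducible factor, was at 10.6, 11.2 and 12.3 FPKM in p150DN embryos, 20.9 and 29.7 FPKM in blastocysts and 3.70, 4.35 and 4.56 FPKM in EGFP 8-cell embryos. Its groups did not overlap, and its log2 fold changes were 1.25 and 2.32 (limma adjusted p = 0.00101 and 8.4e-05). Dld, the dihydrolipoamide dehydrogenase that serves the same complex as Dlat, had 44.9, 36.3 and 38.3 FPKM in p150DN embryos, 66.3 and 62.3 FPKM in blastocysts and 19.2, 20.6 and 18.9 FPKM in EGFP 8-cell embryos. Fbp2, a fructose bisphosphatase that opposes phosphofructokinase, exceeded the phosphofructokinase genes in level, at 258, 146 and 186 FPKM in p150DN embryos, 270 and 312 FPKM in blastocysts and 96.9, 88.7 and 95.03 FPKM in EGFP 8-cell embryos. Both genes were called higher in p150DN embryos and in blastocysts than in EGFP 8-cell embryos, with log2 fold changes of 0.99 and 1.67 for Dld and 1.03 and 1.62 for Fbp2 (limma adjusted p from 4.17e-05 to 0.00438).

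Called higher in p150DN embryos were also Bsg (log2 fold change 0.77), the chaperone of monocarboxylate transporters, the transporter gene Slc2a8 (0.96), Pgm1 (0.87), a phosphoglucomutase, and the muscle mutase gene Pgam2 (1.22), with limma adjusted p from 0.00384 to 0.0154. Called lower in p150DN embryos and in blastocysts were Tigar (-0.65 and -0.95), a fructose bisphosphatase known to lower glycolytic flux, the phosphatase gene Pdp2 (-0.88 and -1.63), which switches pyruvate dehydrogenase on, the ribose isomerase gene Rpia (-0.56 and -1.32) and Mlxip (-0.97 and -1.27), a glucose-sensing transcription factor. Called in blastocysts against EGFP 8-cell embryos, while missing the threshold in p150DN embryos, were Adpgk (1.10), an ADP-dependent glucokinase, the epimerase gene Rpe (0.72), Bpgm (-1.68), which makes bisphosphoglycerate, Prps1 (-1.48), which makes the ribose donor of nucleotide synthesis, the transketolase-like gene Tktl1 (-0.97), Pdpr (-0.87), a regulator of the pyruvate dehydrogenase phosphatase, and Gpd2 (-0.61), the mitochondrial glycerol phosphate dehydrogenase. Of these, Bpgm, Prps1 and Tktl1 were also higher in p150DN embryos than in blastocysts, by 1.67, 1.13 and 1.24 (limma adjusted p = 0.00913, 0.011 and 0.0349). Pfkfb4, a relative of Pfkfb3 chosen here after its values were seen, ran opposite to it, with 3.32, 2.93 and 5.92 FPKM in p150DN embryos, 7.81 and 7.15 FPKM in blastocysts and 0.193, 0.227 and 0.163 FPKM in EGFP 8-cell embryos.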

How the data were processed

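RNA-seq libraries were prepared from total embryo RNA using the SMART-seq stranded kit, per the labels' protocols. Tools listed in the submitters' processing notes, with no role or version, are HISAT2, Bowtie2, featureCounts, SAMtools and Trim Galore, and the build is mm10. The annotation, the strand setting and the treatment of reads with several matches are not given in those sources. The authors deposited a table of FPKM values, per the file headers, of 25220 symbols in 8 libraries. The 8-cell columns whose names give no treatment were read as EGFP 8-cell embryos, since no other 8-cell RNA-seq group lacks p150DN. FPKM fixes the total per library, so a change in RNA per embryo cannot be seen.

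Two-sided tests used limma's lmFit and eBayes with trend (version 3.58.1, R 4.3.3) on log2(FPKM + 1). A gene entered if 3 or more libraries (p150DN against EGFP 8-cell) or 2 or more (other comparisons) reached 1 FPKM, and each fit held the libraries of its own pair of groups. Adjusted p-values are Benjamini-Hochberg over all tested genes, with calls below 0.05. The members and lists were chosen with earlier results of these data known. All 34 members are named whatever their test, and of 50 further pathway genes those called with a mean of at least 5 FPKM. Fragments were recovered from FPKM (Python 3.11.15, pandas 2.3.3). Library totals were inferred by taking the commonest value of short RNA genes as 1 fragment. Gene length was the shortest that gave whole fragments, within 0.02, in all 8 libraries, and was found for all 34 members. Wholeness was thus the rule of the search and no check on it, and the counts are the fewest that fit. Across genes, log2 values of replicates had r of 0.977 to 0.992 within groups, and no pair shared identical values. Of the symbols, 24920 (98.8%) matched RefSeq GRCm38.p6, with promoter windows for 33 members. Alternatives were another pseudocount, other filters, other scalings, all 8 libraries in 1 fit, a replicate block, leaving out each library, and p150DN replicate 1 alone. The other 65 samples of the series were not analysed here.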

Additional observations from a re-analysis of the deposited data

How the results depend on the processing

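No call changed direction under any alternative run (pseudocount 0.1, no filter, a 5 FPKM filter, rescaling, all 8 libraries in 1 fit, a replicate block, libraries left out, p150DN replicate 1 alone). For p150DN against EGFP 8-cell embryos, 10 of 16 calls held under every alternative, and the count was 12 to 16 with 1 library left out. For blastocysts against EGFP 8-cell embryos 17 of 23 held, with counts of 20 to 23. For p150DN embryos against blastocysts the count was 0 to 15 with 1 library left out, 0 without either blastocyst replicate, and 8 with p150DN replicate 1 alone, and none of its 16 calls held throughout, the fits then having fewer libraries, with a lone library assumed to vary like the other group. Over all genes, 4023 calls for p150DN against EGFP 8-cell embryos became 2538 without EGFP 8-cell replicate 1 and 2483 with p150DN replicate 1 alone, and the 3301 calls against blastocysts became 1555 with no filter and 1079 with p150DN replicate 1 alone. Deviations of same-numbered libraries correlated with r of 0.0616, 0.0986 and 0.0346 between p150DN and EGFP 8-cell embryos, -0.0318 and -0.0243 between blastocysts and EGFP 8-cell embryos, and -0.0651 and -0.0606 between p150DN embryos and blastocysts, so the numbers were not taken to pair them. With the replicate block 14, 23 and 16 members were called in the 3 comparisons, against 16, 23 and 16 without it. Each isozyme share belongs to 1 library, so leaving out another library could not move it and was no test of it. Low counts limit Gapdh, Aldoc and Pdk2, which had under 20 fragments in each EGFP 8-cell library. FPKM does not show total RNA, and 2 or 3 libraries per group limit small differences.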
